A study of Mus musculus with 18 samples.

Results

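The genes described here are 10 mouse sensors of microbial molecules and their adaptors: Tlr2, Tlr3, Tlr4, Tlr5, Cd14, Ly96, Myd88, Nod1, Nod2 and Nlrp6. They were chosen by name, as the probe sets whose platform annotation carries 1 of these symbols, which gave 11 probe sets for 10 genes out of 23521 probe sets and 22180 genes with 1 symbol. Nod2 has 2 probe sets (17503664 and 17548687), and the one of higher mean, 17503664, stood for it.

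The arrays compare young germ-free mice, raised without microbes, after transfer of gut microbiota from old donors (OMT) or from young donors (YMT). The donors were about 24 months old for OMT, and for YMT 4 weeks old by the protocol and 5 to 6 weeks old by the design text. All recipients carried the C57BL\6 background, were 5 to 6 weeks old at transfer and were followed for 8 weeks, and the labels give their age at sampling as 12 or 13 weeks. Small intestine and liver each contributed 5 OMT and 4 YMT arrays, 18 in all, described as biological replicates. How many donors and cages stood behind a group is not used here, and what recipients of 1 donor or 1 cage have in common cannot be told apart from donor age. The comparison addresses how the 2 organs that meet gut microbes and their products differed with the age of the microbiota donor. Levels are log2 array values, 1 value per gene and array, and a difference of 1 is a 2-fold difference.

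Toll-like receptors are membrane proteins that bind microbial molecules outside the cell or inside endosomes. TLR2 recognises bacterial lipoproteins, TLR4 lipopolysaccharide, TLR5 flagellin and TLR3 double-stranded RNA. CD14 hands lipopolysaccharide to MD-2, the product of Ly96, which sits on TLR4 and is needed for its response. MYD88 is the adaptor through which most Toll-like receptors, TLR3 excepted, reach the NF-kB pathway. NOD1 and NOD2 sense fragments of peptidoglycan in the cytosol, and NLRP6 is a cytosolic sensor abundant in gut epithelium. In the gut wall and the liver these proteins are shared out among epithelial cells, macrophages and other cells. In whole tissue, fewer cells of a type and less RNA per cell cannot be told apart.

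The arrays bore out their tissue labels. The mean level of 8 hepatocyte markers was 12.04 to 12.12 on liver arrays and 4.90 to 5.22 on intestine arrays, and that of 8 enterocyte markers was 5.63 to 6.10 on liver arrays and 11.41 to 12.38 on intestine arrays. Some OMT arrays stood apart. Intestine OMT replicates 1 and 2 had the highest mean level of 64 small nucleolar RNA genes, 8.75 and 8.28, while the other OMT intestines lay between 7.42 and 7.90 and the YMT intestines between 7.29 and 7.81. Liver OMT replicates 1 and 2 had levels of 9.21 and 9.40 for the desaturase gene Scd1, while the other OMT livers lay between 5.63 and 6.61 and the YMT livers between 12.48 and 12.84. Results are therefore also given without these arrays.

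Background was set by 1405 probe sets of olfactory and vomeronasal receptor genes. The 95th percentile of their mean levels, 4.29 in intestine and 4.15 in liver, served as the background line. Tlr4 lay below it in both tissues, with means over all arrays of 3.89 in intestine and 4.00 in liver, and Cd14 lay below it in liver, at 4.07. These 3 gene and tissue pairs also failed the level filter, a level over the array median on 4 or more of 9 arrays, and they were not tested. The other 9 members in intestine and 8 in liver entered the test. With the line at the 99th percentile (5.32 and 5.20), 5 members in intestine (Tlr2, Tlr4, Tlr5, Cd14 and Nod2) and 4 in liver (Tlr2, Tlr4, Cd14 and Nod2) would count as near background, and with the line at the 90th percentile (3.85 and 3.62) none would. Background in a dim probe set narrows the differences it can show, which bears on Tlr2, Tlr5, Cd14 and Nod2.

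**Figure D1:**
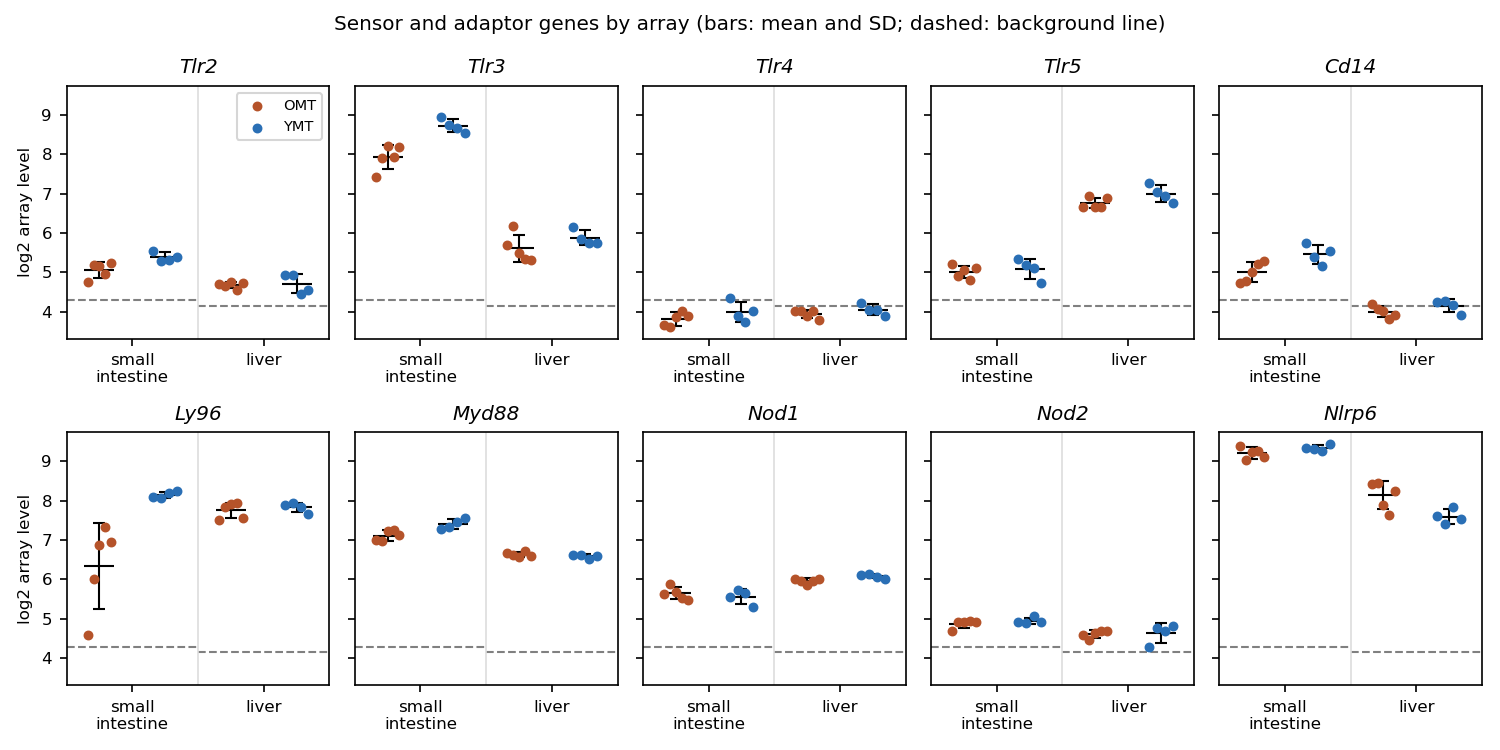
Log2 array level (y axis, unitless) of each of the 10 genes on every array, with OMT in orange left of YMT in blue for small intestine and liver. Black bars give mean and SD over 5 OMT or 4 YMT arrays, and the dashed line is the background line (4.29 in intestine, 4.15 in liver). Ly96 spreads from 4.60 to 7.32 on OMT intestines, below all YMT intestines, and Tlr4 lies around or under the line in both tissues.

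In the small intestine 1 of the 9 tested members, Tlr3, had a lower level in OMT recipients than in YMT recipients, and none a higher one, at an adjusted p under 0.05 (limma, Benjamini-Hochberg over 13238 genes). Among all genes tested, 4.14% passed by the same rule, 3.1% lower and 1.04% higher (410 and 138 genes, or 367 and 274 with arrays centred on the median of the genes tested, a setting chosen after the data were seen). For 4 members, Ly96, Tlr3, Tlr2 and Myd88, every OMT array lay below every YMT array, which held for 6.84% of all genes tested. No member had every OMT array above every YMT array, against 2.8% of all genes. The estimate was below 0 for 8 of the 9 members, with a median of -0.30, while it was below 0 for 54.7% of all genes, with a median of -0.02. An unadjusted p under 0.05 was reached by 5 of the 9 members and by 22.7% of all genes. The members were chosen with earlier results of these data known, so these shares are a description and no test. In what follows these values are set out by the role of each protein.

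Tlr3 (probe set 17509101), the endosomal receptor for double-stranded RNA, had levels of 7.43, 7.91, 8.22, 7.92 and 8.17 on the OMT intestines, against 8.94, 8.74, 8.66 and 8.55 on the YMT intestines. The groups did not overlap, and OMT replicate 1 was the lowest array. The mean was 7.93 ± 0.31 in OMT and 8.72 ± 0.16 in YMT (SD, n = 5 and 4), a log2 difference of -0.79 ± 0.15 (SE; adjusted p = 0.0244, limma), which is 1.73-fold lower in OMT. Without OMT replicates 1 and 2 the difference was -0.62 and the call was kept (adjusted p = 0.0456). The call was lost without OMT replicate 2 (adjusted p = 0.060), YMT replicate 1 (0.0643) or YMT replicate 2 (0.0768), with differences of -0.79, -0.72 and -0.79. After subtraction of each group's mean, all genes tested were ranked by Pearson r with Tlr3 over the 9 intestine arrays. Such a ranking yields high r by selection and is a description. The 2 highest were the transporter gene Slc46a3 (r = 0.987) and the adiponectin receptor gene Adipor1 (r = 0.969). Neither passed the test between OMT and YMT, at -0.16 ± 0.16 (adjusted p = 0.586) and -0.23 ± 0.09 (adjusted p = 0.182).

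Tlr2 (probe set 17406279), the lipoprotein receptor, had levels of 4.75, 5.19, 5.17, 4.96 and 5.24 on the OMT intestines, against 5.55, 5.28, 5.30 and 5.39 on the YMT intestines. The groups did not overlap, but the gap between the highest OMT and the lowest YMT array was small. The difference of -0.32 ± 0.11 did not pass (adjusted p = 0.128, limma), with a 95% interval of -0.57 to -0.07, and without OMT replicates 1 and 2 it was -0.26. Tlr5 (probe set 17220432), the flagellin receptor, spanned 4.81 to 5.20 on OMT and 4.73 to 5.33 on YMT intestines, so the groups overlapped. Its difference was -0.07 ± 0.13 (95% interval -0.35 to 0.21), and the sign of this estimate turned to 0.01 when arrays were centred on the median of the genes tested. Tlr4 (probe set 17414836), the lipopolysaccharide receptor itself, spanned 3.61 to 4.03 on OMT and 3.73 to 4.34 on YMT intestines, below the background line on every array except YMT replicate 1. Its difference without the level filter was -0.18 ± 0.13 (adjusted p = 0.525, limma).

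The promoters of Tlr2, Tlr3 and Myd88 are shown because these genes were lower on every OMT intestine than on any YMT intestine. That held for 6.84% of all genes tested, and of these genes only Tlr3 passed the threshold. A link between the motifs below and the differences was not tested. RefSeq promoter windows on GRCm38.p6 ran from 250 bases before to 50 bases after the annotated start. Those of 7 of the 10 members are reported here, not including Cd14, Ly96 and Tlr4. They were searched on both strands for the interferon-stimulated response element, GAAA and GAAA with any 2 bases between them, present in 3.44% of 32851 windows, and for the NF-kB consensus, present in 8.46%, and matches are in capitals. Overlapping matches count separately. Of the 7 members, 1 held the first motif (Myd88, 1 match, beginning 40 bases before the start) and 2 held the second (Tlr2, 3 matches, beginning 173, 172 and 8 bases before the start, and Tlr3, 1 match, beginning 211 bases before it). A match is a run of letters and not a measured site. The windows are chr3:83841559-83841858 for Tlr2, chr8:45410331-45410630 for Tlr3 and chr9:119339969-119340268 for Myd88, all on the minus strand and written 5′ to 3′ along the gene.
Tlr2: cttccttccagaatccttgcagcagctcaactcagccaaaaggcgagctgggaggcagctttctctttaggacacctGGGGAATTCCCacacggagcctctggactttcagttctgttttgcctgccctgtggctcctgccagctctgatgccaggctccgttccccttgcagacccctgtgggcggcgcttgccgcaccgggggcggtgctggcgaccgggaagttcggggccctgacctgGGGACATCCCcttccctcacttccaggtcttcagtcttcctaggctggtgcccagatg
Tlr3: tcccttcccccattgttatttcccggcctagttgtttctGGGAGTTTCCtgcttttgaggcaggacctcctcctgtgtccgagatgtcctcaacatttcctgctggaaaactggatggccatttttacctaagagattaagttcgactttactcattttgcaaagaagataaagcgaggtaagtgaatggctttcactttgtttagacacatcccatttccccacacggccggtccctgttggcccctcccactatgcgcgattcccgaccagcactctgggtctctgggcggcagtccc
Myd88: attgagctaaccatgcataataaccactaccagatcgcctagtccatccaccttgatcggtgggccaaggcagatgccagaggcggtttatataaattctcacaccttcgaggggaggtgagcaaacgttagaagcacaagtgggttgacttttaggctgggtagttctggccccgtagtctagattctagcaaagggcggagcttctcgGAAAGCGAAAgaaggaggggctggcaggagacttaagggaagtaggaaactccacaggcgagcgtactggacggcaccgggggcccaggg

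Of the co-receptors of TLR4, Ly96 had the largest difference of any member in either tissue by point estimate. Ly96 (probe set 17211286) had levels of 4.60, 6.00, 6.88, 7.32 and 6.94 on the OMT intestines, against 8.09, 8.08, 8.20 and 8.24 on the YMT intestines. All OMT arrays were below all YMT arrays, the OMT arrays were widely spread and the YMT arrays lay close together. The mean was 6.35 ± 1.09 in OMT and 8.15 ± 0.08 in YMT (SD, n = 5 and 4), a log2 difference of -1.80 ± 0.46 (SE, 95% interval -2.83 to -0.78), or 3.49-fold lower in OMT. It did not pass the threshold (adjusted p = 0.0566, limma), and over 22 alternative settings the adjusted p ranged from 0.00285 to 0.129 and the difference from -2.05 to -1.11. The smallest of these differences, without OMT replicates 1 and 2, passed (adjusted p = 0.0102), and so did the differences without OMT replicate 1 (-1.37, adjusted p = 0.0205) or without OMT replicate 4 (-2.05, adjusted p = 0.0372).

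Cd14 (probe set 17353747), the co-receptor that passes lipopolysaccharide on, had levels of 4.72, 4.78, 5.00, 5.22 and 5.29 on the OMT intestines, against 5.75, 5.38, 5.16 and 5.53 on the YMT intestines. Of the OMT arrays 3 lay below the lowest YMT array and the other 2 overlapped with the YMT range. The difference was -0.45 ± 0.15 (adjusted p = 0.112, limma), and -0.28 without OMT replicates 1 and 2 (adjusted p = 0.358), a change of more than 1.5 times. Myd88 (probe set 17532137), the shared adaptor, had levels of 6.99, 6.97, 7.22, 7.25 and 7.14 on the OMT intestines, against 7.28, 7.34, 7.46 and 7.56 on the YMT intestines. The groups did not overlap, with the highest OMT array just under the lowest YMT array. The difference was -0.30 ± 0.09 (adjusted p = 0.0869, limma; 95% interval -0.49 to -0.10), and -0.21 without OMT replicates 1 and 2 (adjusted p = 0.265).

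The spread of Ly96 within the groups followed other quantities on the same arrays. After subtraction of each group's mean, its Pearson r over the 9 intestine arrays was -0.91 with the small nucleolar RNA level, 0.80 with the mean of 12 macrophage markers, 0.79 with Nod2, 0.75 with Tlr3, 0.68 with Myd88, 0.64 with Cd14, 0.55 with Tlr2 and 0.50 with Tlr4. It was negative with Tlr5 (-0.39), Nlrp6 (-0.36) and Nod1 (-0.29). Other marker lists gave 0.71 (goblet and Paneth cells), 0.67 (T cells and NK cells), 0.60 (B cells and plasma cells), 0.57 (stellate cells and fibroblasts), 0.51 (endothelial cells), 0.25 (monocytes and neutrophils), 0.08 (enterocytes) and -0.10 (hepatocytes). These values share the arrays and their normalization and are descriptions. Ly96 spanned only 8.08 to 8.24 on YMT intestines, so they rest mainly on the OMT arrays. There replicate 1 had the lowest Ly96 level (4.60) and the lowest Nod2 level (4.69, against 4.91 to 4.94 on the others). The correlations were not computed without this array. Macrophage markers had list means of 4.97 to 5.43 on OMT and 5.20 to 5.51 on YMT intestines, a difference of -0.08 (exact permutation p = 0.556, two-sided; adjusted p = 0.618 over 20 list and tissue pairs), and Vsig4, Timd4 and Cd5l, markers of resident macrophages, lay near background. Of the 9 macrophage markers tested singly, Mertk, a receptor for dying cells, rose by 0.48 ± 0.09 (adjusted p = 0.0181, limma), against the sign of the list mean, and no other passed. The small nucleolar RNA level differed by 0.45 (exact permutation p = 0.127, adjusted p = 0.318). Markers of T cells and NK cells differed by -0.33, with list means of 5.67 to 6.14 on OMT and 6.10 to 6.50 on YMT intestines (exact permutation p = 0.0635, adjusted p = 0.181). Markers of goblet and Paneth cells also differed by -0.33, with 10.97 to 11.55 on OMT and 11.50 to 11.70 on YMT intestines (exact permutation p = 0.0635, adjusted p = 0.181). Of 8 markers tested singly in each of these lists, 1 fell past the threshold over all genes, as did 3.1% of all genes. These were the granzyme gene Gzma in the T cell and NK cell list (-0.96 ± 0.22, adjusted p = 0.0394, limma) and the goblet cell gene Clca1 (-0.82 ± 0.16, adjusted p = 0.0245). Of the other lists in intestine, enterocyte markers differed by 0.28, B cell and plasma cell markers by -0.26, stellate cell and fibroblast markers by -0.14, endothelial markers by -0.11, hepatocyte markers by -0.09 and monocyte and neutrophil markers by -0.05, with adjusted p of 0.375 or more. The part of these in the differences of Ly96, Tlr3, Cd14 and Myd88 was not tested.

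**Figure D2:**
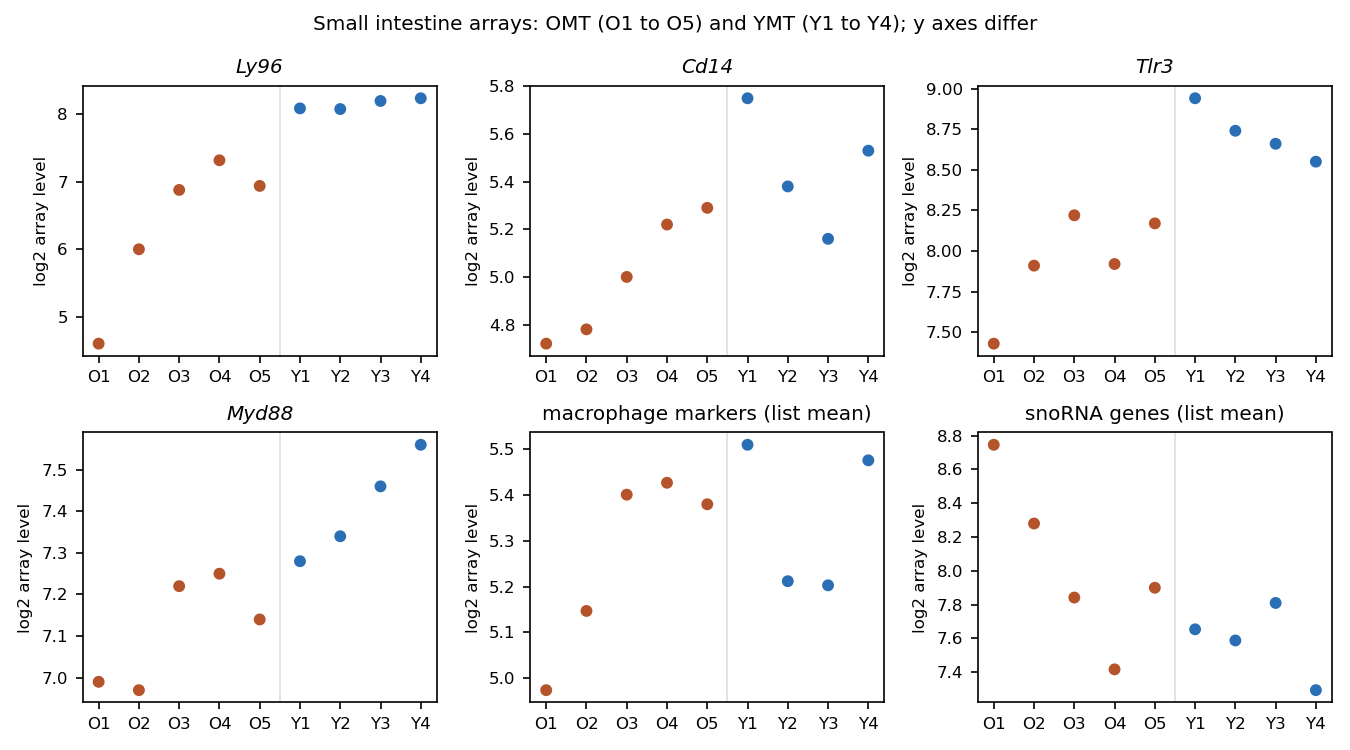
Log2 array level (y axes, unitless, a different range in each panel) of Ly96, Cd14, Tlr3 and Myd88 and the mean level of 12 macrophage markers and of 64 small nucleolar RNA genes on each small intestine array (x axis), OMT replicates O1 to O5 in orange left of YMT replicates Y1 to Y4 in blue. On O1, Ly96 (4.60), Cd14 (4.72), Tlr3 (7.43) and the macrophage markers (4.97) are lowest and the small nucleolar RNA level (8.75) is highest.

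The cytosolic sensors showed no difference past the threshold in the small intestine. Nlrp6 (probe set 17484670) spanned 9.03 to 9.40 on OMT and 9.27 to 9.44 on YMT intestines, a difference of -0.13 ± 0.09 (95% interval -0.32 to 0.06). Nod1 (probe set 17467015), the sensor of diaminopimelic acid peptides, spanned 5.49 to 5.89 on OMT and 5.29 to 5.72 on YMT intestines, a difference of 0.09 ± 0.11 (95% interval -0.15 to 0.34). This estimate was 0.0047 without YMT replicate 4, 0.0325 without OMT replicate 2, 0.0150 without OMT replicates 1 and 2 and 0.148 without YMT replicate 2. Nod2, the sensor of muramyl dipeptide, spanned 4.69 to 4.94 on OMT and 4.89 to 5.06 on YMT intestines. Its difference was -0.07 ± 0.08 (95% interval -0.24 to 0.10), and the sign turned to 0.01 with the mean of its probe sets or with arrays centred on the median of the genes tested. The groups overlapped for all 3 genes.

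In the liver 1 of the 8 tested members, Nlrp6, was higher in OMT than in YMT recipients and none was lower, at an adjusted p under 0.05 (limma, over 13380 genes). Among all genes tested in liver 19.2% passed, 10.4% higher and 8.78% lower (1388 and 1175 genes, or 1156 and 1492 after quantile normalization within the tissue). No tested member had groups that did not overlap, while 8.51% of all genes had every OMT array below and 9.64% every OMT array above every YMT array. An unadjusted p under 0.05 was reached by 1 of the 8 members and by 32.4% of all genes. The median difference of the members was -0.05.

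Nlrp6 had levels of 8.43, 8.45, 7.90, 7.64 and 8.25 on the OMT livers, against 7.61, 7.40, 7.84 and 7.53 on the YMT livers. Of the OMT livers 4 lay above the highest YMT liver and replicate 4 lay within the YMT range, so the groups overlapped. The mean was 8.13 ± 0.35 in OMT and 7.60 ± 0.18 in YMT (SD, n = 5 and 4), a log2 difference of 0.54 ± 0.17 (SE; adjusted p = 0.0461, limma), or 1.45-fold higher. Replicates 1 and 2, the OMT livers with the higher Scd1 levels, also had the highest Nlrp6 levels, and without them the difference was 0.34 and did not pass (adjusted p = 0.181). The call was lost in 6 of the 9 fits that left out 1 array, with differences of 0.46 to 0.54 there: without OMT replicate 1, 2 or 5 (adjusted p = 0.0926, 0.0918 and 0.0994) and without YMT replicate 1, 2 or 4 (0.0864, 0.129 and 0.104). It was also lost with no level filter (adjusted p = 0.076) and with quantile normalization within the tissue (0.0528), at differences of 0.54 and 0.49. All genes tested were likewise ranked by r with Nlrp6 over the 9 liver arrays after subtraction of group means. The 2 highest, again picked for their r, were Rgp1 and Madd (Pearson r = 0.98 each). They themselves differed by 0.31 ± 0.12 (adjusted p = 0.0945) and -0.07 ± 0.12 (adjusted p = 0.728).

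The other hepatic members did not pass. Tlr3 spanned 5.31 to 6.17 on OMT and 5.75 to 6.16 on YMT livers, a difference of -0.27 ± 0.17 (adjusted p = 0.296, limma), and replicate 2 was the highest OMT liver. Without OMT replicate 2 the difference was -0.41 and passed (adjusted p = 0.0409), and without OMT replicates 1 and 2 it was -0.49 (adjusted p = 0.0198), a change of more than 1.5 times. Without YMT replicate 1 it was -0.18 (adjusted p = 0.539), smaller by more than 1.5 times. Tlr5 spanned 6.66 to 6.94 on OMT and 6.75 to 7.26 on YMT livers, a difference of -0.23 ± 0.11 (95% interval -0.47 to 0.01), and -0.14 without YMT replicate 1. Tlr5 was far above the background line in liver, and at most 5.33 on any intestine array. Whether both tissues were normalized together is not stated, so levels were not tested between tissues.

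Ly96 spanned 7.52 to 7.93 on OMT and 7.67 to 7.93 on YMT livers, a difference of -0.08 ± 0.11 (95% interval -0.31 to 0.16). Myd88 spanned 6.58 to 6.73 on OMT and 6.52 to 6.62 on YMT livers, a difference of 0.05 ± 0.06 (95% interval -0.09 to 0.19). Nod1 spanned 5.87 to 6.02 on OMT and 6.02 to 6.14 on YMT livers, a difference of -0.12 ± 0.06 (95% interval -0.26 to 0.02). Nod2 spanned 4.46 to 4.69 on OMT and 4.28 to 4.81 on YMT livers, and Tlr2 4.56 to 4.76 on OMT and 4.46 to 4.93 on YMT livers, with differences of -0.03 ± 0.11 for each, whose signs turned in some alternatives. Cd14 spanned 3.82 to 4.19 on OMT and 3.91 to 4.28 on YMT livers, and Tlr4 3.79 to 4.02 on OMT and 3.89 to 4.23 on YMT livers. Both are at the background line, and without the level filter their differences were -0.15 ± 0.10 (adjusted p = 0.432) and -0.11 ± 0.09 (adjusted p = 0.53).

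Mean levels of markers of other liver cells differed between OMT and YMT livers, none past an adjusted p of 0.05. With these group sizes the list test could pass only if many lists reached its smallest p together, so this outcome says little. Endothelial markers had list means of 6.70 to 6.97 on OMT and 7.15 to 7.46 on YMT livers, a difference of -0.45, and stellate cell and fibroblast markers 6.10 to 6.25 on OMT and 6.27 to 6.65 on YMT livers, a difference of -0.32 (exact permutation p = 0.0159 each, the smallest these group sizes allow, adjusted p = 0.106). Tested singly with limma, where 8.78% of all genes fell and 10.4% rose, 5 of 8 endothelial markers fell (Cdh5, Kdr, Ptprb, Clec4g and Pecam1). Among them Cdh5, which encodes the cadherin of endothelial junctions, was at -0.75 ± 0.10 (adjusted p = 0.000768). Of 8 stellate cell and fibroblast markers 5 fell (Reln, Col3a1, Col1a1, Col1a2 and Pdgfrb), with the collagen gene Col3a1 at -0.95 ± 0.15 (adjusted p = 0.00194), while the growth factor receptor gene Pdgfra rose by 0.74 ± 0.22 (adjusted p = 0.0353). Kupffer cell and macrophage markers had 6.43 to 6.71 on OMT and 6.65 to 6.87 on YMT livers, a difference of -0.22 (exact permutation p = 0.0476, adjusted p = 0.181), and 3 of 12 (Clec4f, Cd5l and C1qc) fell past the threshold over all genes. T cell and NK cell markers differed by -0.09 (exact permutation p = 0.0476, adjusted p = 0.181), with 8 of 10 near background. Enterocyte markers differed by 0.26 (exact permutation p = 0.0159, adjusted p = 0.106), with Vil1, Sis, Lct and Slc5a1 near background and the apolipoprotein gene Apoa4 the 1 that rose, by 2.17 ± 0.23 (adjusted p = 0.000166, limma). The other enterocyte markers tested singly, Fabp2 (-0.17), Anpep (0.11) and Alpi (0.11), did not pass, so this list mean mainly reflects Apoa4. B cell and plasma cell markers differed by -0.08, goblet and Paneth cell markers by -0.02, hepatocyte markers by 0.03, small nucleolar RNAs by 0.13 and monocyte and neutrophil markers by 0.01, with adjusted p of 0.318 or more. Of the 8 hepatocyte markers 1, Cyp2e1, rose (0.23 ± 0.06, adjusted p = 0.0234, limma). The part of these lists in the hepatic values of the sensors was not tested.

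**Figure D3:**
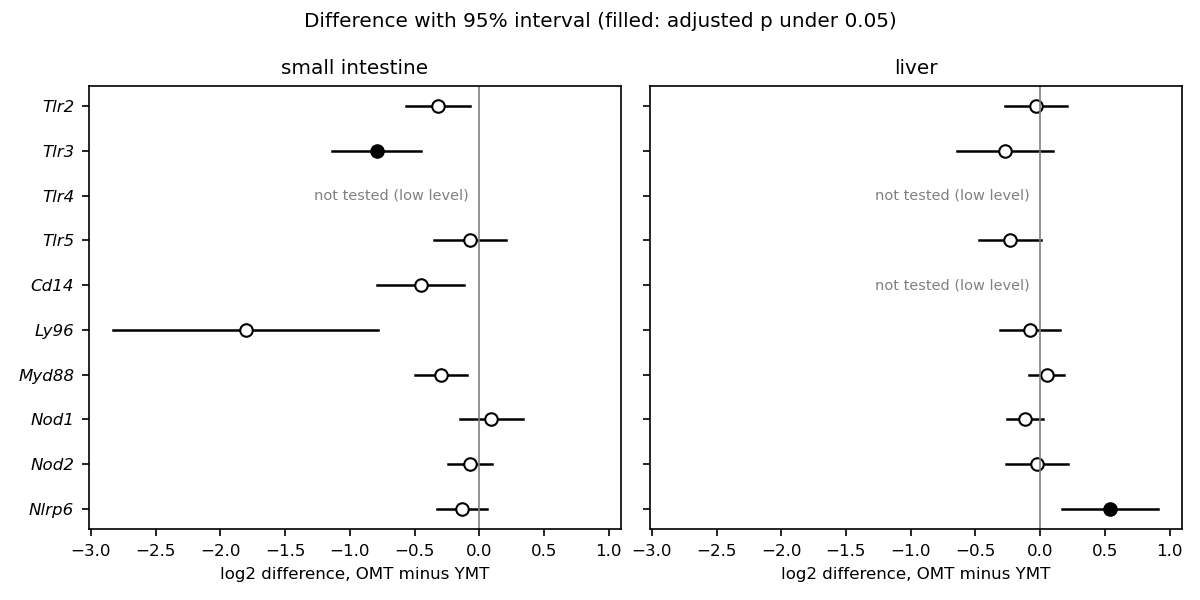
Log2 difference of OMT minus YMT (x axis) with its 95% interval from limma for each gene (y axis) in small intestine (left) and liver (right). Filled points passed an adjusted p of 0.05: Tlr3 in intestine (-0.79) and Nlrp6 in liver (0.54).

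An interaction term tested whether donor age went with unequal differences in the 2 organs, over all 18 arrays and 11959 genes, of which 11.9% passed in either direction. It took the arrays as independent, though the liver and intestine of 1 mouse may share a replicate number, which no label states. It also took 1 spread per gene over both tissues. Of the 8 members tested, 3 passed, all with a higher value in liver than in intestine, against 7.91% of all genes in that direction. For Ly96 the difference was -0.08 in liver and -1.80 in intestine, an interaction of 1.73 ± 0.49 (adjusted p = 0.0295, limma). The SD of Ly96 was 1.09 on OMT and 0.08 on YMT intestines, and 0.20 on OMT and 0.11 on YMT livers. The single spread of this fit is therefore not that of the OMT intestines, and within intestine Ly96 did not pass (adjusted p = 0.0566, limma). For Nlrp6 the difference was 0.54 in liver and -0.13 in intestine, an interaction of 0.67 ± 0.20 (adjusted p = 0.0331). For Myd88 it was 0.05 in liver and -0.30 in intestine, an interaction of 0.35 ± 0.11 (adjusted p = 0.0429). Tlr3, past the threshold in intestine and not in liver, had an interaction of 0.52 ± 0.24 that did not pass (adjusted p = 0.162). When 1 array was left out, Ly96 passed in 15 of 18 fits, Nlrp6 in 8 and Myd88 in 4, with interactions of 1.29 to 1.97, 0.59 to 0.80 and 0.30 to 0.39. Ly96 lost its call without intestine OMT replicate 2, intestine YMT replicate 4 or liver YMT replicate 4 (adjusted p = 0.0538, 0.0563 and 0.0562). Nlrp6 lost it without intestine OMT replicates 2 or 5, intestine YMT replicates 1, 2 or 4, liver OMT replicates 1, 2 or 5, or liver YMT replicates 2 or 4. Myd88 passed only without intestine OMT replicates 3 or 4, intestine YMT replicate 1 or liver OMT replicate 3.

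Around these 10 genes, 7 lists of pathway genes with 107 genes in all were examined, of which 78 were tested in intestine and 71 in liver. In intestine 10 were lower in OMT (12.8%, against 3.1% of all genes) and none was higher, with a median difference of -0.20. Without OMT replicates 1 and 2 the count was 3, and with 1 array left out it ranged from 2 to 11, the lowest without YMT replicate 2. In liver 12 were higher (16.9%, against 10.4% of all genes) and 6 lower (8.45%, against 8.78%), with a median difference of -0.03. The lists were chosen with earlier results of these data known, so their shares beside those of all genes are a description and no test. The counts of single lists below are small and stand beside the same shares of all genes. In intestine 22.7% of all genes had an unadjusted p under 0.05 by limma. So did 6 of 8 cytosolic nucleic acid sensor genes, 8 of 14 NF-kB genes and 6 of 12 inflammasome genes. The counts were 5 of 9 other receptor and accessory genes and 4 of 7 peptidoglycan and lectin genes. They were 3 of 15 adaptor and kinase genes and 2 of 13 NOD signalling genes.

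Among the inflammasome genes, 3 of 12 tested fell in OMT intestines and none of the others passed in either direction (list median -0.24). Casp1, the protease that matures IL-1beta and IL-18, spanned 8.96 to 9.35 on OMT and 9.76 to 9.91 on YMT intestines, a difference of -0.69 ± 0.09 (adjusted p = 0.00598, limma). Casp4, the protease that binds cytosolic lipopolysaccharide, spanned 6.18 to 7.51 on OMT and 8.24 to 8.87 on YMT intestines (-1.39 ± 0.26, adjusted p = 0.0201). Il18bp, the soluble inhibitor of IL-18, fell by 0.90 ± 0.19 on the log2 scale (adjusted p = 0.0316). For Casp1 and Casp4 the groups did not overlap. For Il18bp they did, with 6.03 to 6.65 on OMT and 6.58 to 7.59 on YMT intestines. In liver 1 of 8 inflammasome genes rose and 2 fell (median -0.16), against 10.4% higher and 8.78% lower of all genes. Nlrp12, an inhibitory NOD-like receptor, differed by 0.79 ± 0.16 (adjusted p = 0.00554), Il18, the cytokine, by -0.84 ± 0.12 (adjusted p = 0.000732) and the pore protein Gsdmd by -0.47 ± 0.12 (adjusted p = 0.0174).

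Of 9 other Toll-like receptor and accessory genes tested in intestine, Lbp fell and none rose (median -0.14). Lbp, the serum protein that carries lipopolysaccharide to CD14, spanned 4.37 to 4.70 on OMT and 4.86 to 5.37 on YMT intestines (-0.53 ± 0.11, adjusted p = 0.0316, limma), close to the background line of 4.29. In liver, its main source, Lbp spanned 9.55 to 9.87 on OMT and 7.99 to 8.68 on YMT arrays (1.29 ± 0.13, adjusted p = 0.000106), and its interaction, liver minus intestine, was 1.82 ± 0.18 (adjusted p = 4.07e-06). Of 8 genes tested there, Hsp90b1, the chaperone that folds Toll-like receptors, rose by 0.83 ± 0.10 (adjusted p = 0.000311), and Cd36, a scavenger receptor that can assist TLR2, by 0.50 ± 0.13 (adjusted p = 0.022). None of these 8 fell (median 0.19).

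None of 15 adaptor and proximal kinase genes passed in intestine by limma, 3 having an unadjusted p under 0.05, against 22.7% of all genes (median -0.10). In liver 2 of 15 rose and none fell (median 0.09), near the 10.4% of all genes that were higher there. The hepatic rises were Irf3, the transcription factor that serves the TLR3 pathway (0.52 ± 0.08, adjusted p = 0.00127, limma), and its kinase gene Tbk1 (0.40 ± 0.09, adjusted p = 0.00802). Of the NOD signalling list, Birc3, an inhibitor of apoptosis protein that acts below NOD2, fell in both tissues, by 0.79 ± 0.12 in intestine (adjusted p = 0.00867) and 0.60 ± 0.15 in liver (adjusted p = 0.017) on the log2 scale. It was the 1 of 13 that changed in intestine (median -0.11). In liver 2 of 10 rose (median -0.10), against 10.4% of all genes. They were the autophagy gene Atg16l1 (0.61 ± 0.10, adjusted p = 0.00201) and Birc2, the relative of Birc3 (0.56 ± 0.12, adjusted p = 0.0102).

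Of 14 NF-kB subunit and target genes tested in intestine, Nfkbia, which encodes the inhibitor that NF-kB itself induces, fell (8.59 to 9.26 on OMT and 9.43 to 9.73 on YMT arrays, -0.74 ± 0.13, adjusted p = 0.0158, limma) and the others did not pass (median -0.36). In liver 2 of 16 rose and none fell (median 0.08), near the 10.4% of all genes that were higher. They were Ikbkg, the regulatory subunit of the IkB kinase (0.92 ± 0.11, adjusted p = 0.000372), and Nfkbiz, a nuclear IkB protein (0.62 ± 0.11, adjusted p = 0.003). Of the 8 cytosolic nucleic acid sensor genes tested in each tissue, 3 fell in intestine (median -0.57), Zbp1 (-1.90 ± 0.41, adjusted p = 0.032), Irf7 (-0.86 ± 0.20, adjusted p = 0.0447) and the RNA helicase gene Ddx58 (-0.64 ± 0.15, adjusted p = 0.0467). The groups overlapped for Zbp1 (6.10 to 7.87 on OMT and 7.70 to 9.40 on YMT intestines) but not for Irf7 or Ddx58. In liver 3 fell and 1 rose (median -0.35), with Irf7 at -1.21 ± 0.14 (adjusted p = 0.000259), the helicase gene Ifih1 at -0.52 ± 0.08 (adjusted p = 0.00136) and Mavs, the adaptor of these helicases, at 0.61 ± 0.10 (adjusted p = 0.00248). The remaining gene that fell, Dhx58, another helicase of this family, is outside the naming rule (-0.76 ± 0.16, adjusted p = 0.00688). Of the peptidoglycan recognition proteins and lectin receptors, Pglyrp1, a bactericidal peptidoglycan-binding protein, was the 1 of 7 that fell in intestine (7.66 to 8.73 on OMT and 8.87 to 9.30 on YMT arrays, -0.90 ± 0.19, adjusted p = 0.03; list median -0.31). The macrophage scavenger receptor gene Marco was the 1 of 6 that rose in liver (6.90 to 8.00 on OMT and 5.43 to 6.00 on YMT arrays, 1.67 ± 0.19, adjusted p = 0.000241; list median -0.24).

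**Figure D4:**
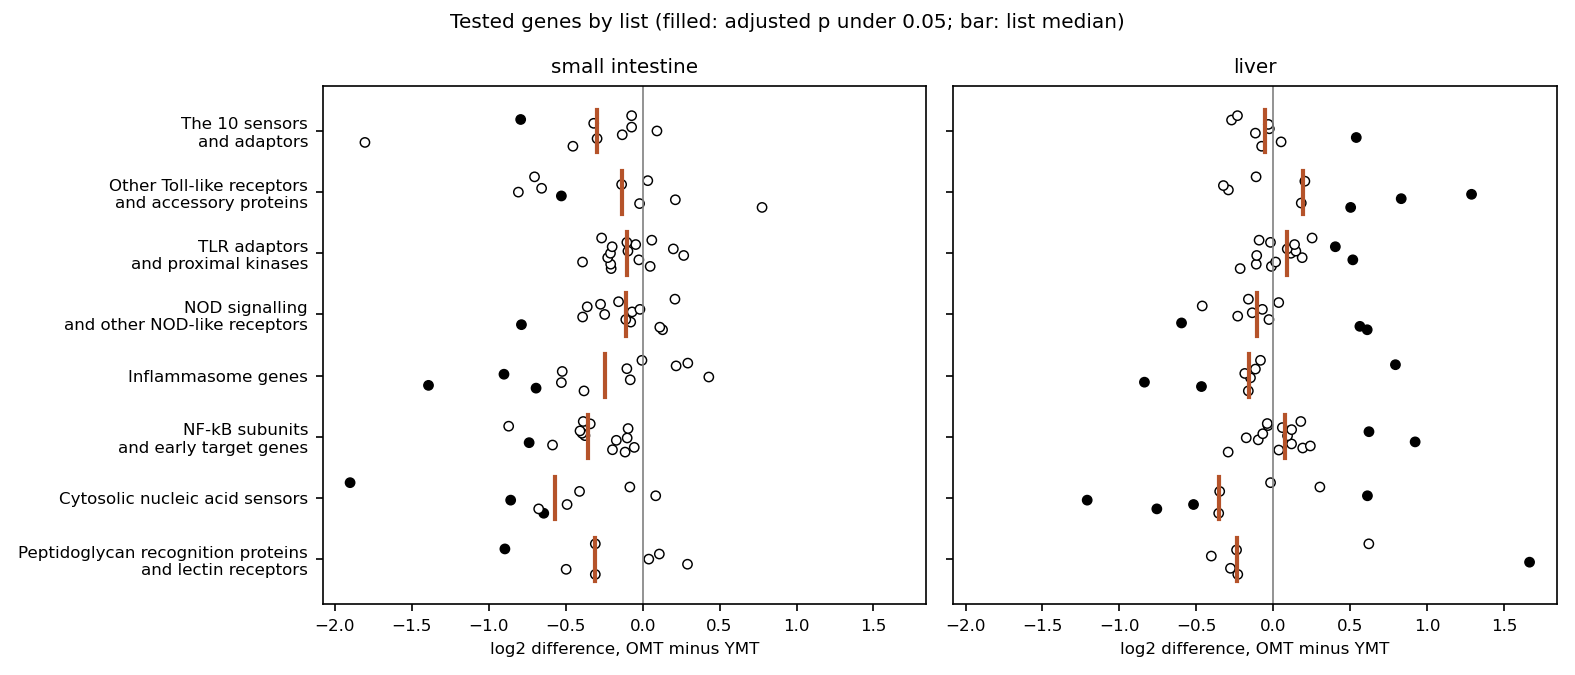
Log2 difference of OMT minus YMT (x axis) of each tested gene in the 10 sensors and adaptors and in 7 pathway lists (rows), in small intestine (left) and liver (right); filled points passed an adjusted p of 0.05 and bars are list medians. All filled points in intestine lie below 0, and in liver 12 pathway genes lie above and 6 below 0.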

How the data were processed

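RNA from 9 small intestines and 9 livers was measured on 1 Affymetrix array each, from 250 ng of total RNA per the labels' protocols. The authors deposited log2 values, and per the submitters' processing notes these came from RMA and the Affymetrix Expression Console, whose versions the labels do not name. Their range was read as that of base 2. No scan dates were used here, so a batch matching donor group cannot be told apart from it. The number of arrays limits the precision.

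Of 41345 probe sets, 23521 have 1 gene symbol, 1814 several and 16010 none here. Symbols were updated by gene identifier through a RefSeq table, which held 23328. No arrays were identical. Probe sets over the array median on 4 or more of a tissue's 9 arrays were tested, 1 per gene, that of highest mean. OMT and YMT, grouped by sample title, were compared within a tissue with limma 3.58.1 in R 4.3.3, two-sided, at an adjusted p of 0.05, and unequal differences by an interaction over 18 arrays. List means were compared by exact permutation in scipy 1.17.1. The steps were tested on simulated data. Alternatives were other filters, eBayes settings, weights, scalings, probe set rules, a replicate block, arrays left out and a threshold of 0.10.

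All members were named, and from each pathway list up to 3 genes of smallest p past the threshold per tissue. Members, lists and the arrays left out together were chosen with earlier results of these data known. Of the 107 pathway genes 100 were named on the array. The spread that enters the p-values is that between recipients.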

Additional observations from a re-analysis of the deposited data

Results flagged for a closer look

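Of 40 groups of arrays, 10 genes in 4 groups, 1 held a value far from the others by Dixon's test, which flags about 1 in 20 groups by chance. It was Nod2 in OMT intestines, with 4.69 on replicate 1 and 4.91 to 4.94 on the other 4. Replicate 1 is also the OMT intestine with the lowest Ly96 level and the highest small nucleolar RNA level. The difference of OMT minus YMT was unequal between liver and intestine, by the interaction test in limma, for Ly96 (1.73, adjusted p = 0.0295), Myd88 (0.35, adjusted p = 0.0429) and Nlrp6 (0.67, adjusted p = 0.0331). For Ly96 and Myd88 all 5 OMT intestines lay below all 4 YMT intestines, and the liver groups overlapped.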

How the results depend on the processing

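Over 21 or 22 alternatives within a tissue, the intestinal differences of Ly96, Tlr3, Myd88, Tlr2, Cd14, Nlrp6 and Nod1 and the hepatic ones of Nlrp6, Tlr3, Tlr5, Ly96, Myd88 and Nod1 kept their sign. Tlr3 in intestine passed in 18 of 22 (-0.86 to -0.62), Ly96 in 7 of 22 and hepatic Nlrp6 in 12 of 22 (0.34 to 0.66); the causes of these changes were not tested. With all 18 arrays in the fit Ly96, Myd88 and Cd14 passed in intestine beside Tlr3 (adjusted p = 0.00285, 0.0173 and 0.0329). That fit takes 1 spread per gene from both tissues, and the spread of Ly96 differed between them.

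In intestine, where 138 genes were higher, 410 lower, 1 member lower and 10 pathway genes lower, these became 78 higher, 232 lower and 5 pathway genes with no filter, 365, 1080, 4 members and 17 pathway genes with all 18 arrays, 368, 804 and 2 members with array weights, and 382, 949 and 3 members at a threshold of 0.10. Without OMT replicates 1 and 2 they were 74 and 156, with 2 members and 3 pathway genes lower. A filter at the 75th percentile gave 2 members, quantile normalization 211 genes higher, and centring on the median of the genes tested, chosen after the data were seen, 274 genes higher and 2 members lower. In liver the count of members higher was 0 with no filter, quantile normalization or without OMT replicates 1 and 2, where 1 member was lower, and a threshold of 0.10 gave 12 pathway genes lower against 6. For the interaction, no filter left 1 member of 3.

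Leaving out 1 array gave 36 to 154 intestinal genes higher and 111 to 482 lower, 0 to 2 members and 2 to 11 pathway genes lower; the count of genes lower fell by more than 1.5 times without OMT replicate 2 (165) or 3 (226) and YMT replicate 1 (206), 2 (111) or 4 (168). In liver it gave 927 to 1518 higher and 863 to 1167 lower, 0 to 1 members higher and 0 to 1 lower, and 5 to 8 pathway genes lower, and for the interaction 624 to 1160 genes higher, 320 to 503 lower and 0 to 3 members.

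Deviations from group means were compared between same-numbered arrays. OMT and YMT arrays, which come from different mice, correlated at -0.06 to 0.32 in intestine and -0.18 to 0.09 in liver. Intestine and liver arrays correlated at -0.04 to 0.08 in OMT and 0.01 to 0.15 in YMT, where OMT 5 and YMT 1 and 2 correlated best with their own number. No label says whether a number marks 1 mouse in both tissues, and this was not settled here. The interaction treated the arrays as independent. A replicate block matched OMT and YMT arrays of the same number within a tissue, which come from different mice. It did not link liver to intestine, so it does not address arrays of 1 mouse in both tissues. The block, which leaves out OMT replicate 5, gave 0 members lower in intestine (Tlr3 -0.85, adjusted p = 0.0569, limma). In liver it gave 740 genes higher, 719 lower and 0 members higher (Nlrp6 0.51, adjusted p = 0.132). For the interaction it gave 615 genes and 1 member.

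Small differences turned sign. In intestine Tlr5 was 0.0060 and Nod2 0.0060 when centred on the genes tested, Nod2 0.0095 with the mean of its probe sets and Tlr5 0.0093 without YMT replicate 1. In liver Tlr2 was 0.0038 with array weights and 0.0367 and 0.0400 without YMT replicates 1 and 2, and Nod2 0.0125 without OMT replicate 2, 0.0173 without YMT replicate 2 and 0.0333 without OMT replicates 1 and 2. With 1 array left out Tlr5 in intestine ranged down to -0.1907, and in liver Tlr2 to -0.1167 and Nod2 to -0.1567. The interaction of Nod2 was -0.0010 without intestine OMT replicate 1 and -0.0745 without liver YMT replicate 1. With the background line at the 90th percentile 0 members in intestine and 0 in liver were near background, and at the 99th 5 and 4. Signal close to background limits what can be said of Tlr4 in both tissues and of Cd14 in liver.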
